A study of Mus musculus with 16 samples.

Results

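The wild-type cerebral cortices of 2 mouse stocks were compared across all genes. The comparison set 4 libraries of the Aifm1 stock (Aifm1-WT 1 to 4) against 4 of the Hq stock (Hq-WT 1 to 4), taken by their labels from 16 libraries in all. Aifm1-WT are the wild-type littermates of the Aifm1-KI mice, which carry Aifm1 (R200 del), a deletion in the gene of the mitochondrial apoptosis-inducing factor. Hq-WT are the wild-type littermates of the Harlequin mutants (Hq-mut), whose stock is written B6CBACa Aw-J/A-Aifm1Hq/J. The strain label is C57BL/6 for all 16 samples, the age was around postnatal day 180 and no treatment was given. Neither wild-type group is labelled as carrying an Aifm1 mutation, so the groups differ by stock, and by whatever went with it in housing, dissection and library preparation. No batch is named, and stock and batch cannot be told apart. Whether the 4 libraries of a group came from 4 different mice is not stated, and p-values therefore speak only of the spread among libraries, which may be technical.

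Mouse stocks of mixed descent can carry stretches of chromosome from different founder strains. A gene in such a stretch may be transcribed at another level, or its reads may be counted under another gene where near-identical copies differ at single bases. Dissected cortex is covered by meninges and lies close to the choroid plexus, the secretory tissue of the ventricles, and to striatum and hippocampus.

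Total counts of the 8 libraries ran from 10.7 to 23.8, in units of 1000000. Levels are given in counts per 1000000 (CPM, scaled by TMM factors), and a gene with 0 counts could be at up to 0.126 to 0.281 CPM, depending on the library. Aifm1 was at 21.6 to 23.2 CPM in Aifm1-WT and 23.2 to 25.3 CPM in Hq-WT (log2 fold change 0.07, SE 0.08, edgeR adjusted p = 0.713), and at 2.14 to 3.97 CPM in Hq-mut. Summed markers of excitatory neurons ran from 5411 to 5958 CPM in Aifm1-WT and from 5144 to 6492 CPM in Hq-WT. Some libraries stood apart. The sum over 22 transcripts of the liver was 454 and 520 CPM in Aifm1-WT 1 and 2, 75.0 and 64.6 CPM in Aifm1-WT 3 and 4, and 25.7 to 44.0 CPM in Hq-WT. These 22 are a list of 24 without Ttr and Vtn, which are also listed for choroid plexus and for pericytes and smooth muscle. Choroid plexus markers summed to 5456 CPM in Hq-WT 2 and to 12.2 to 384 CPM in the other 7 libraries. Meningeal markers summed to 572 to 719 CPM in Aifm1-WT, and to 113, 166, 524 and 349 CPM in Hq-WT 1 to 4. In bulk tissue, fewer cells of a type and less RNA per cell cannot be told apart.

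Of 18106 genes that passed the filter on low counts, 101 (0.558%) differed between the stocks at an edgeR adjusted p under 0.05. These are referred to as called: 41 (0.226%) were higher in Hq-WT and 60 (0.331%) were lower. An unadjusted edgeR p under 0.05 was seen for 2304 of the 18106 genes. In 100 of the 101 all 4 libraries of one stock lay above all 4 of the other. The 101 were chosen by p in these same libraries, so this separation largely follows from the choice. Of all genes tested 7.45% showed no overlap (568 higher in Hq-WT, 781 lower). A difference of at least 2-fold without overlap, at a mean log2 CPM of at least 0, was seen for 167 genes (0.922%), 38 higher and 129 lower in Hq-WT, and 62 of the 167 were called. By type, the called genes were 72 protein-coding genes, 13 pseudogenes and 16 other transcripts. Pseudogenes were called at 0.964% of the 1348 tested and protein-coding genes at 0.502% of 14336. Of the 13 pseudogenes 11 were higher in Hq-WT, and of the 72 protein-coding genes 23 were.

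The number of called genes depended on single libraries. It was 37, 32 and 42 without Aifm1-WT 1, 2 and 3, 107 without Aifm1-WT 4, 49 without Hq-WT 1, and 169, 231 and 174 without Hq-WT 2, 3 and 4. In all 8 of these fits 28 of the 101 genes were called, 15 higher and 13 lower in Hq-WT. The other 73 lost the call without at least 1 library.

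One promoter and 2 pairs of a pseudogene and its parent gene are shown by sequence. The promoter is that of Sycp1, shown because the gene was on in one stock and off in the other. Sycp1 is a gene of the synaptonemal complex, which joins paired chromosomes in meiosis. The RefSeq window on GRCm38.p6 is chr3:102936051-102936350 on the minus strand, and the capitals mark the palindrome TCTCGCGAGA, which reads the same on both strands.

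Sycp1: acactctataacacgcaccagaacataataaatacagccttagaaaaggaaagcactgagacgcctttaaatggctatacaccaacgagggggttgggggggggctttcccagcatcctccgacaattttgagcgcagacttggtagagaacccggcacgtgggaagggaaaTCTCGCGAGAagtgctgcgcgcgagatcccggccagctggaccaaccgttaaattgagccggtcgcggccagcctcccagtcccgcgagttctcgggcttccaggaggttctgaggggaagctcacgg

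The palindrome occurs in 153 of 32851 such windows (0.466%) and, of the 61 called genes with a window in the RefSeq table, in 1, that of Sycp1. It was searched after the gene was found, and the match is a description, not a site. The pairs are shown because reads of a copy and its parent can be hard to tell apart, each over 51 bases, the length of a read, with mm10 (GRCm38) positions. Capitals mark the bases at which the members of a pair differ. Gm28438, at chr1:24613069-24613119 on the minus strand, is a nuclear copy of mt-Nd3, a mitochondrial gene of a complex I subunit, at chrM:9459-9509 on the plus strand.

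Gm28438: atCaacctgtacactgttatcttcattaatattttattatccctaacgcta
mt-Nd3: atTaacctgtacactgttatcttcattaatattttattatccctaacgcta

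Over 345 aligned bases this pair differs at 1, at position 3 of the pseudogene. Of the 295 windows of 51 bases in Gm28438, 292 also occur in mt-Nd3. Gm9855 is a processed pseudogene of Tdg, which encodes a glycosylase that removes mismatched thymine from DNA. Its window, chr10:42054206-42054256 on the minus strand, is set beside the match in Tdg, which spans an exon junction within chr10:82648078-82648627 on the plus strand.

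Gm9855: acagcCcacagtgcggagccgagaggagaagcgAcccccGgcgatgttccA
Tdg: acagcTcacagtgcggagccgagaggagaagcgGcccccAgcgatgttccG

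Over 1191 aligned bases the Gm9855 and Tdg references differ at 9, and 76.1% of the windows of Gm9855 also occur in Tdg.

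Genes that were on in one stock and off in the other were sought as those with at most 3 counts in every library of one and at least 10 in every library of the other, with no filter. There were 6. Catspere1, Sycp1 and Gm7224 were on in Hq-WT, and Gm10654, Lhx9 and Cyp2e1 in Aifm1-WT. With 1 of the 8 libraries left out the rule asks less, and the number of such genes ranged from 7 to 20. It was 13 and 15 without Aifm1-WT 3 and 4, and 14, 11 and 20 without Hq-WT 2, 3 and 4. With at most 1 count where off, 4 remained: Sycp1, Gm10654, Gm7224 and Catspere1.

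Catspere1 and Catspere2 are neighbours on chromosome 1 named for CatSper, the calcium channel of the sperm tail, and Catspere1 is annotated as an unprocessed pseudogene. It had 1, 0, 1 and 0 counts in Aifm1-WT 1 to 4 and 191, 163, 100 and 89 counts in Hq-WT 1 to 4. The ratio of pooled counts, adjusted for library size, was 340 (95% exact interval 93.6 to 2813). This interval and those that follow cover counting error only. They use the same counts that chose the genes, so they are no test of the difference. Catspere2 was at 2.96, 4.16, 4.02 and 3.04 CPM in Aifm1-WT and 26.8, 21.5, 23.3 and 13.8 CPM in Hq-WT. Hq-WT 4 was the lowest of its group, and every Hq-WT library lay above every Aifm1-WT library (log2 fold change 2.57, SE 0.21, edgeR adjusted p = 1.89e-04). Of the 51-base windows of Catspere1, 24.7% also occur in Catspere2, so the split between the pair is uncertain.

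Sycp1 had 1, 0, 0 and 0 counts in Aifm1-WT and 63, 37, 51 and 82 counts in Hq-WT. The ratio of pooled counts was 292 (95% exact interval 51.8 to 11566). In the mutants it had 0, 5, 0 and 0 counts in Aifm1-KI 1 to 4 and 104, 38, 97 and 98 in Hq-mut, so both genotypes of the Hq stock had reads. Gm7224, an unprocessed pseudogene, had 0, 1, 0 and 1 counts in Aifm1-WT and 31, 75, 32 and 42 in Hq-WT, a ratio of 113 (95% exact interval 30.7 to 937). The F-box gene Fbxo34, in which 507 of the 2016 windows of Gm7224 also occur, was at 36.7 to 41.5 CPM in Aifm1-WT and 28.2 to 43.9 CPM in Hq-WT. Its libraries overlapped between the stocks.

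In the other direction, Gm10654, a transcript of unproven product on chromosome 8, had 41, 61, 32 and 36 counts in Aifm1-WT and 1, 0, 0 and 0 in Hq-WT. Its ratio, Aifm1-WT over Hq-WT, was 136 (95% exact interval 24.1 to 5396). Lhx9, a LIM homeobox transcription factor of the thalamus, had 18, 19, 15 and 21 counts in Aifm1-WT and 2, 3, 0 and 1 in Hq-WT, a ratio of 9.72 (95% exact interval 4.26 to 27.4). Its level was low where it was on, at 0.768 to 0.926 CPM, and the summed thalamus markers overlapped between the stocks, at 180 to 219 CPM in Aifm1-WT and 175 to 227 CPM in Hq-WT. Among the mutants Lhx9 reached 355 and 133 counts (10.4 and 5.82 CPM) in Aifm1-KI 2 and 4, and was at 12 counts in each of Aifm1-KI 1 and 3. Aifm1-KI 2 and 4 also had the highest summed striatal markers of their group, at 661 and 603 CPM against 346 and 269 CPM. Their summed hippocampus markers were the highest of the group too, at 282 and 233 CPM against 143 and 115 CPM. Hq-mut 3, with the highest striatal sum of the 16 libraries (865 CPM), had 8 counts of Lhx9. The part of neighbouring tissue in this was not tested. Cyp2e1, a liver cytochrome P450, had 153 and 209 counts in Aifm1-WT 1 and 2, 22 and 12 in Aifm1-WT 3 and 4, and 2 or 3 in each Hq-WT library. Its counts in Aifm1-WT ran with the summed liver transcripts, and it was not called (edgeR adjusted p = 0.0528).

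**Figure D1:**
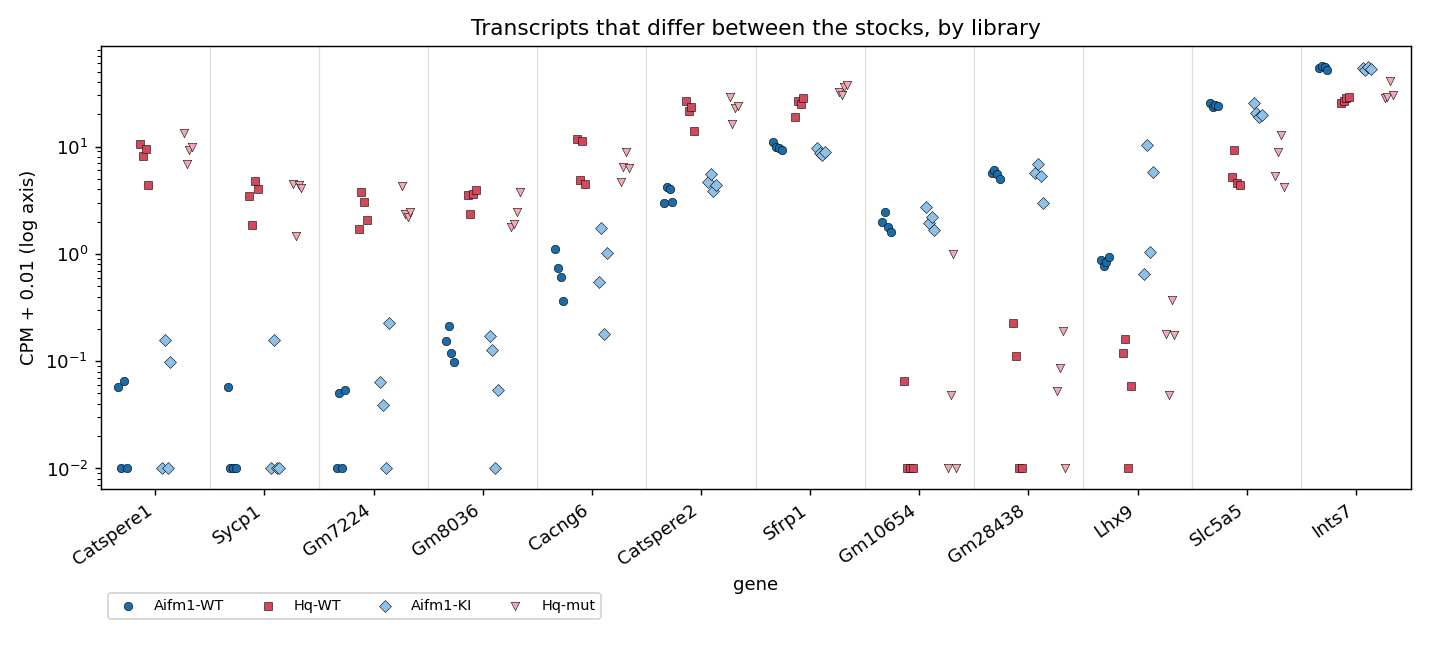
Level of 12 genes in each of the 16 libraries, as CPM + 0.01 on a log axis, with 1 point per library and the 4 groups side by side. For each gene shown, the 8 libraries of the Hq stock lie on one side of the 8 libraries of the Aifm1 stock.

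Several further protein-coding genes were higher in Hq-WT. Cacng6, a gamma-type subunit of voltage-gated calcium channels, was at 1.10, 0.728, 0.605 and 0.353 CPM in Aifm1-WT and 11.9, 4.90, 11.3 and 4.50 CPM in Hq-WT. Hq-WT 1 and 3 were the highest and no library overlapped (log2 fold change 3.51, SE 0.42, edgeR adjusted p = 0.0035). Dnah6, a dynein heavy chain of motile cilia, was at 2.10, 0.849, 1.16 and 4.32 CPM in Aifm1-WT and 11.5, 12.7, 21.7 and 10.6 CPM in Hq-WT. The stocks were separate (log2 fold change 2.71, SE 0.42, edgeR adjusted p = 0.0203), but the call was lost without Aifm1-WT 1, 2 or 3 (adjusted p = 0.0900, 0.0596 and 0.0587).

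The called genes included Sfrp1, Frzb and Fzd7, which act in Wnt signalling and differed in both directions. The share called among all Wnt genes was not taken. Sfrp1, which binds Wnt ligands outside the cell, was at 11.02, 9.99, 9.74 and 9.26 CPM in Aifm1-WT and 18.8, 26.6, 24.9 and 28.2 CPM in Hq-WT. All 4 Hq-WT libraries were higher (log2 fold change 1.29, SE 0.13, edgeR adjusted p = 0.0010). Frzb, a related secreted protein, was at 14.1, 9.46, 10.02 and 9.87 CPM in Aifm1-WT and 30.1, 25.5, 20.99 and 21.1 CPM in Hq-WT, again without overlap (log2 fold change 1.16, SE 0.16, edgeR adjusted p = 0.0074). The Wnt receptor Fzd7 was lower, at 7.24 to 8.73 CPM in Aifm1-WT and 3.88 to 5.33 CPM in Hq-WT (log2 fold change -0.74, SE 0.14, edgeR adjusted p = 0.0465). Frzb and Fzd7 were named after their values were seen. With 1 library left out, Sfrp1 and Frzb were called in all 8 fits and Fzd7 in 3.

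Fbn2, a fibrillin of elastic microfibrils, was higher in Hq-WT (log2 fold change 1.25, SE 0.23, edgeR adjusted p = 0.0417). So was Hddc3, an HD-domain hydrolase (1.20, SE 0.21, adjusted p = 0.0383), but 66.4% of its windows also occur in other genes and its counts are uncertain. Structural RNAs formed another group. The rRNA transcript CT010467.1 was at 621, 644, 403 and 409 CPM in Aifm1-WT and 2282, 2803, 8992 and 8234 CPM in Hq-WT. Hq-WT 3 and 4 were highest (log2 fold change 3.42, SE 0.43, edgeR adjusted p = 0.0059). Mir6236 was at 16.8 to 27.9 CPM in Aifm1-WT and 49.9, 77.5, 413 and 366 CPM in Hq-WT. Rn7sk, the small nuclear RNA 7SK, was at 0.728 to 1.43 CPM in Aifm1-WT and 2.13, 3.03, 9.04 and 5.97 CPM in Hq-WT. In each of these the same 2 Hq-WT libraries were highest. Other genes hold 69.1% of the windows of CT010467.1, 68.0% of those of Rn7sk and 100% of those of Gm23935, so these counts are uncertain as well. CT010467.1, Mir6236 and Gm23935 together took 0.0447% to 0.0715% of counts in Aifm1-WT and 0.234% to 0.966% in Hq-WT, and the part of this share in other differences was not tested.

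Among called genes without overlap at a mean log2 CPM of at least 0, with predicted genes left aside, liver proteins held 7 of the 10 largest differences in the other direction. Alb, serum albumin, was at 156, 172, 18.4 and 13.7 CPM in Aifm1-WT and 1.26, 2.62, 0.282 and 0.440 CPM in Hq-WT. The stocks did not overlap, but Aifm1-WT 1 and 2 were far above Aifm1-WT 3 and 4 (log2 fold change -6.18, SE 0.99, edgeR adjusted p = 0.0256). Without Aifm1-WT 1 and 2 the log2 fold change of Alb was -3.72 (edgeR adjusted p = 0.0505). Gc, Apoa2, Mup3, Serpina3k, C3 and Pzp, also plasma or urinary proteins made by the liver, had log2 fold changes of -5.57, -5.43, -5.36, -5.17, -4.38 and -3.59. In these and Alb, 7 of the 101 called genes, Aifm1-WT 1 and 2 were each at 3 times or more of both Aifm1-WT 3 and 4. Of the full liver list 20 genes were tested, 19 lower and 1 higher in Hq-WT. Without Ttr and Vtn all 18 tested were lower (median log2 fold change -5.19). Of these 18, edgeR called 4 and 17 had an unadjusted p under 0.05, and DESeq2 called 16. Genes near 0 in Hq-WT could pass the filter through the Aifm1-WT libraries where they were high. The shared direction of the 18 is therefore partly set by the filter and is no support for a difference. Between the mutants 8 of this list were tested, 6 lower and 2 higher in Hq-mut. The part of the uneven liver transcripts in other differences was not tested. Without Aifm1-WT 1 and 2, 20 genes were called, 19 of them among the 101.

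The remaining 3 of those 10 called genes were Slc47a1, Myoc and Bub1b. Myoc, the secreted glycoprotein myocilin, was at 24.8, 27.7, 33.7 and 22.3 CPM in Aifm1-WT and 0.602, 1.16, 6.59 and 7.53 CPM in Hq-WT. Hq-WT 1 and 2 were lowest, as in the summed meningeal markers (log2 fold change -2.83, SE 0.53, edgeR adjusted p = 0.0465). Slc47a1, a transporter of organic cations, was at 8.92, 2.91, 4.68 and 2.38 CPM in Aifm1-WT and 0.109, 0.252, 1.51 and 0.196 CPM in Hq-WT (log2 fold change -3.48, SE 0.66, edgeR adjusted p = 0.0465). All 9 meningeal markers were lower in Hq-WT (median log2 fold change -1.20) and 4 of them did not overlap. By edgeR 0 of the 9 were called and 7 had an unadjusted p under 0.05, and DESeq2 called 1. Slc6a13, a GABA transporter of the meninges, had the smallest p (log2 fold change -1.24, SE 0.33, edgeR adjusted p = 0.146).

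Other called genes differed in either direction. Fbn2, given above, was higher in Hq-WT, and the following were lower. Spp1, the matrix protein osteopontin, was at 8.45 to 11.5 CPM in Aifm1-WT and 1.59 to 4.52 CPM in Hq-WT. Cd163, a scavenger receptor of perivascular macrophages, was at 1.82 to 2.72 CPM and 0.353 to 1.04 CPM. Col5a2, a fibrillar collagen chain, was at 5.01 to 9.47 CPM and 2.27 to 3.13 CPM. These 3 genes, named after their values were seen, lay without overlap beside lower meningeal markers, whose part in the result was not tested.

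Bub1b, a kinase of the spindle checkpoint, was at 4.49, 7.52, 5.72 and 6.96 CPM in Aifm1-WT and 0.438, 0.252, 0.659 and 2.25 CPM in Hq-WT (log2 fold change -2.73, SE 0.48, edgeR adjusted p = 0.0369). Hjurp, a chaperone that loads the centromeric histone, was at 87.7, 105, 118 and 99.8 CPM in Aifm1-WT and 26.5, 19.2, 27.5 and 60.8 CPM in Hq-WT (log2 fold change -1.62, SE 0.29, edgeR adjusted p = 0.0383). In both, Hq-WT 4 was the highest of its group yet below every Aifm1-WT library. Spag5, a spindle protein, was at 45.3 to 58.2 CPM and 22.1 to 35.9 CPM. Hjurp and Spag5 were named after their values were seen, and all 3 genes lost the call without some single library.

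Adam18, a membrane protein of sperm, was at 1.91, 1.01, 0.991 and 1.90 CPM in Aifm1-WT and 0.0547, 0.0505, 0 and 0.196 CPM in Hq-WT. It was called in every fit that left out 1 library. Sycp1 and Catspere1, also named for the germline, differed in the opposite direction. The share called among all germline genes was not taken. Ints7, a subunit of the Integrator complex that processes small nuclear RNAs, was at 54.4, 56.3, 55.4 and 51.3 CPM in Aifm1-WT and 25.6, 26.5, 28.1 and 29.3 CPM in Hq-WT. Each stock was narrow and the gap between them wide (log2 fold change -0.999, SE 0.08, edgeR adjusted p = 1.57e-04). Tatdn3, a predicted nuclease on the same chromosome, was at 16.9 to 21.3 CPM in Aifm1-WT and 7.44 to 9.59 CPM in Hq-WT (log2 fold change -1.16, SE 0.12, edgeR adjusted p = 0.0018). These 3 genes were named after their values were seen.

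Every autosome held called genes, in unequal shares. Chromosome 1 held 17 of 1150 tested genes (1.48%), chromosome 8 held 13 of 940 (1.38%), chromosome 18 held 6 of 509 (1.18%) and chromosome 19 held 6 of 581 (1.03%). On chromosome 1, 13 of the 17 were lower in Hq-WT, among them Tcea1, Hjurp, Nvl, Srp9, Tatdn3 and Ints7, and on chromosome 18, 5 of the 6 were higher. Chromosome 2 held 2 of 1367 and chromosome X held 1 of 639, the processed pseudogene Gm8036. Gm8036 was at 0.0882 to 0.202 CPM in Aifm1-WT and 2.32 to 3.96 CPM in Hq-WT (log2 fold change 4.52, SE 0.32, edgeR adjusted p = 1.26e-04).

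**Figure D2:**
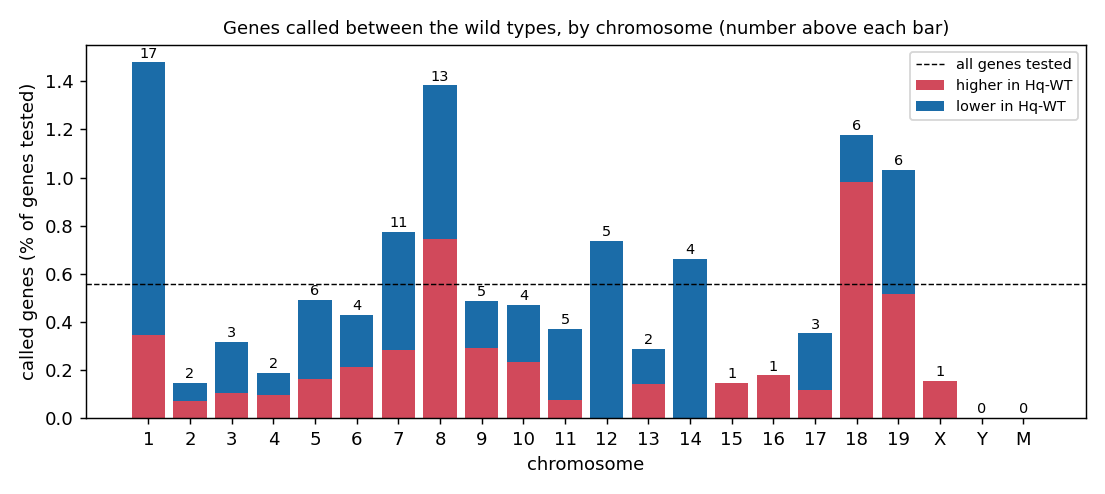
Called genes as a percentage of the genes tested on each chromosome, stacked by direction, with the number of called genes above each bar. The dashed line is the 0.558% of all genes tested, and chromosomes 1 and 8 have the tallest bars, at 1.48% and 1.38%.

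Called genes without overlap were joined while their starts lay within 1000000 bases of each other, and groups of at least 3 were kept. There were 5. The one with the most genes, on chromosome 8 from 69366510 to 71511752, held 7 of 78 tested genes, 3 of them higher and 4 lower in Hq-WT. Slc5a5, the sodium-iodide symporter, was at 25.4, 23.3, 24.5 and 24.1 CPM in Aifm1-WT and 5.14, 9.19, 4.52 and 4.35 CPM in Hq-WT. It fell in all 4 libraries (log2 fold change -2.06, SE 0.20, edgeR adjusted p = 0.0010). Zfp868, a zinc finger gene, was at 12.4, 12.3, 12.4 and 12.4 CPM in Aifm1-WT and 19.97, 21.96, 20.8 and 18.9 CPM in Hq-WT. It rose with little spread in either stock (log2 fold change 0.71, SE 0.09, edgeR adjusted p = 0.0046). Plvap, a protein of the diaphragms of fenestrated endothelium, was higher (log2 fold change 0.92, SE 0.13), as was Ssbp4, a single-stranded DNA-binding protein (0.50, SE 0.08). The transcribed pseudogene Gm10033 (-1.04, SE 0.10), Tmem59l (-0.58, SE 0.10) and Gm10654, described above, were lower.

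The same 7 genes were read in the mutant libraries, which the grouping did not use. In 6 of the 7, Hq-mut 3 was the Hq-mut library nearest to Aifm1-WT. Slc5a5 was at 12.7 CPM in Hq-mut 3, at 5.28, 8.89 and 4.17 CPM in Hq-mut 1, 2 and 4, and at 18.97 to 25.2 CPM in Aifm1-KI. Gm10033 was at 22.2 CPM in Hq-mut 3, within the 19.8 to 27.4 CPM of Aifm1-KI, and at 13.8, 8.32 and 12.1 CPM in the other Hq-mut libraries. Gm10654 was at 0.994 CPM in Hq-mut 3, at or below 0.0381 CPM in the other Hq-mut libraries and at 1.66 to 2.73 CPM in Aifm1-KI. At Slc5a5 and Gm10654, Hq-mut 3 thus lay between the stocks. This was noticed after the values were seen and was not tested.

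**Figure D3:**
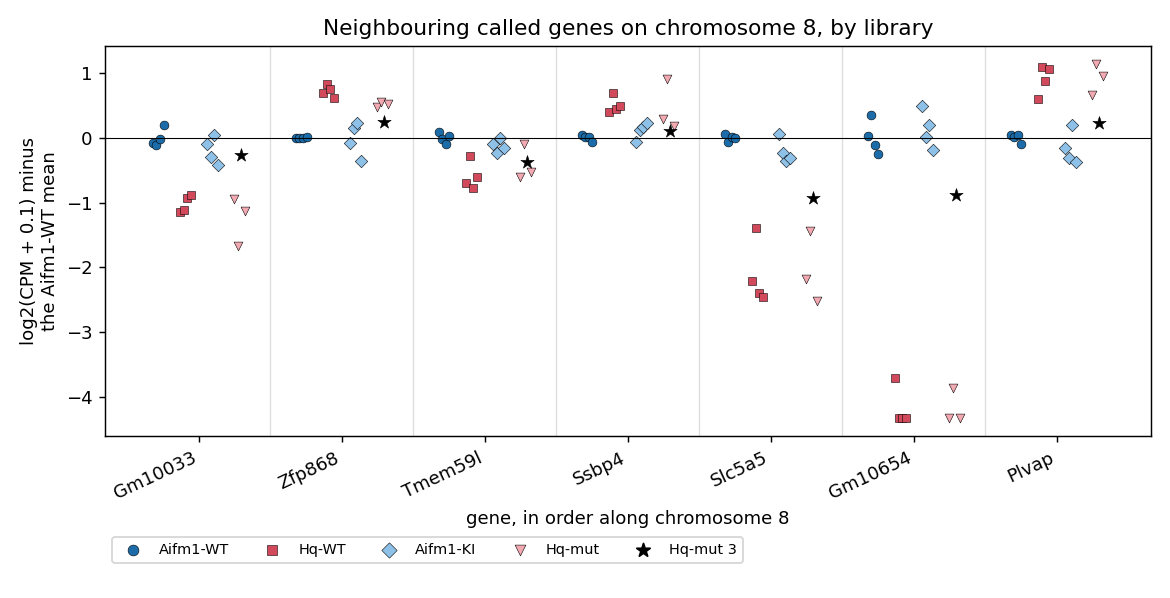
The 7 neighbouring called genes of chromosome 8 in order, each library as log2(CPM + 0.1) minus the mean of Aifm1-WT, with Hq-mut 3 as a star. The star is the Hq-mut point nearest to 0 for 6 of the 7 genes.

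Chromosome 7 held 2 groups. In the first, from 3181093 to 4480487, Gm3375 and Cacng6 were higher in Hq-WT, while Tmc4, a transmembrane channel-like gene (log2 fold change -1.20, SE 0.20), and Eps8l1, an actin regulator, were lower. Eps8l1 was at 9.83, 12.5, 13.6 and 16.4 CPM in Aifm1-WT and 2.24, 6.56, 1.88 and 4.06 CPM in Hq-WT, without overlap (log2 fold change -1.79, SE 0.32, edgeR adjusted p = 0.0383). The second, from 36710174 to 36734558, held Gm37452, Gm38340, E230020A03Rik and Gm37827. These 4 transcripts set its ends, and no other was tested between them. The 4 have no established product and may be parts of 1 unit. Their log2 fold changes were -2.41, -2.74, -2.62 and -2.15. Gm38340 was at 5.68, 9.26, 9.19 and 6.57 CPM in Aifm1-WT and 1.15, 0.909, 1.13 and 1.42 CPM in Hq-WT, so the stocks were far apart (edgeR adjusted p = 1.99e-04). In all 4, Aifm1-WT 1 and Aifm1-KI 2 were the libraries of their groups nearest to the Hq stock, and Aifm1-WT 1 was nearest in all 4 genes of the first group as well.

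The remaining groups held 3 genes each. On chromosome 10, from 81628540 to 82650799, Tdg and Ankrd24, an ankyrin repeat gene, were lower in Hq-WT (log2 fold changes -0.97 and -0.56) and Gm4924 was higher (0.86). On chromosome 19, from 60889749 to 61257789, Grk5, a kinase of G protein-coupled receptors (0.69, SE 0.12), and the processed pseudogene CR555305.2 (1.75, SE 0.23) were higher, and Csf2ra, the alpha chain of the GM-CSF receptor (-0.65, SE 0.12), was lower. The number of groups was 2, 2, 2 and 3 without Aifm1-WT 1, 2, 3 and 4, 2 without Hq-WT 1, and 10, 12 and 11 without Hq-WT 2, 3 and 4. The 4 transcripts of the second chromosome 7 group formed a group in all 8 of these fits, and Slc5a5, Gm10654 and Plvap shared one in all 8.

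Several called transcripts are copies of other genes, and reads that match in more than 1 place may go uncounted, so copy and parent were read together. Gm28438 was at 5.68, 6.02, 5.50 and 4.98 CPM in Aifm1-WT and 0.219, 0.101, 0 and 0 CPM in Hq-WT (log2 fold change -5.91, SE 0.43, edgeR adjusted p = 1.26e-04). The mutants showed the same split, with 2.98 to 6.93 CPM in Aifm1-KI and 0 to 0.181 CPM in Hq-mut. Its parent mt-Nd3, which differs from it at the 1 capital printed above, had at most 0.0547 CPM in any of the 16 libraries. The 9 mitochondrially encoded genes tested were all higher in Hq-WT (median log2 fold change 0.26) and 3 did not overlap. By edgeR 0 of the 9 were called and 7 had an unadjusted p under 0.05, and DESeq2 called 2.

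Gm9855 and Tdg differed in opposite directions. Gm9855 was at 0.764, 0.647, 0.440 and 0.617 CPM in Aifm1-WT and 3.28, 3.58, 2.45 and 2.20 CPM in Hq-WT (log2 fold change 2.20, SE 0.25, edgeR adjusted p = 0.0029). Tdg was at 8.26, 7.40, 7.98 and 7.76 CPM in Aifm1-WT and 4.21, 2.78, 3.77 and 5.33 CPM in Hq-WT (log2 fold change -0.97, SE 0.18, edgeR adjusted p = 0.0465). Neither overlapped, and with most windows of Gm9855 shared, their separate levels are uncertain. The same was seen for Gm3375, at 6.27 to 8.06 CPM and 15.0 to 33.3 CPM. Psmb5, the proteasome subunit gene that holds 55.6% of its windows, was at 10.51 to 13.03 CPM in Aifm1-WT and 5.84 to 9.68 CPM in Hq-WT. It was likewise seen for Gm18180, at 0.162 to 0.334 CPM and 0.734 to 1.26 CPM. Zfp617, which holds 79.2% of its windows, was at 9.08 to 9.83 CPM in Aifm1-WT and 6.40 to 8.03 CPM in Hq-WT. Psmb5 and Zfp617 were not called (edgeR adjusted p = 0.162 and 0.166). Zc3h15, which holds 43.8% of the windows of the higher Gm5909, overlapped between the stocks. Of the 101 called genes 9 share at least 50% of their windows with other genes, and 35 share none.

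The stocks were compared again in the mutants, Hq-mut over Aifm1-KI, in 8 libraries that the wild-type comparison did not use but that also differ in Aifm1 allele. They are no independent repeat. Over genes, deviations from the group mean correlated at 0.417 to 0.559 between Hq-WT and Hq-mut libraries of the same number, which were each other's best match in all 4 pairs, and at -0.419 to 0.123 between those of different numbers. Between Aifm1-WT and Aifm1-KI the same-numbered values were -0.055 to 0.108. What the paired Hq libraries shared is not stated in the labels, and a difference shared by stock cannot be told apart from one shared through these pairs. Of 18499 genes tested, 184 (0.995%) were called, 38 higher and 146 lower in Hq-mut, and 13.7% of those tested showed no overlap. The count was 33, 38, 250 and 25 without Aifm1-KI 1 to 4 and 39, 406, 41 and 135 without Hq-mut 1 to 4. Of the 101 genes called between the wild types 97 were tested in the mutants, and 97 had the same direction, where 72.0% of the 17916 genes tested in both did. Without overlap in the same direction were 61, and 0 in the opposite. Called in the same direction were 30, 12 higher and 18 lower in the Hq stock, which are 29.7% of the wild-type calls and 16.3% of the mutant calls.

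The 12 include Catspere1, Sycp1, Gm7224, Gm8036, Cacng6, Gm35021, Catspere2, Gm9855, Gm11814 and Sfrp1. The 18 include Gm28438, Serpina3k, the 4 transcripts of the second chromosome 7 group, Hmgb2, Myh7, Mirt1 and Slc39a2. Myh7, a slow myosin heavy chain, was at 9.11, 9.38, 8.70 and 7.23 CPM in Aifm1-WT, 3.28, 2.17, 1.60 and 3.62 CPM in Hq-WT, 7.01 to 15.3 CPM in Aifm1-KI and 1.37 to 3.39 CPM in Hq-mut. All 8 libraries of the Hq stock lay below all 8 of the Aifm1 stock. Sfrp1 was at 8.42 to 9.73 CPM in Aifm1-KI and 30.1 to 37.8 CPM in Hq-mut (log2 fold change 1.93). Slc39a2, a zinc transporter, was at 15.0 to 23.5 CPM in Aifm1-WT, 6.06 to 11.5 CPM in Hq-WT, 18.3 to 23.2 CPM in Aifm1-KI and 5.53 to 10.7 CPM in Hq-mut.

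Whether the stock difference itself differed between wild types and mutants was tested in a fit of all 16 libraries. Of 19129 genes 2 were called, Aifm1 and the processed pseudogene Gm6166, and neither is among the 101. By edgeR 0 of the 101 were called (lowest adjusted p = 0.944) and 10 had an unadjusted p under 0.05, where 972 of all 19129 did. DESeq2 called 5 genes, none of them among the 101. With the pairs of the Hq stock as a block the same 2 genes were called, and 1994 of all genes and 17 of the 101 had an unadjusted p under 0.05. The 101 were chosen by the wild-type difference, which is itself part of this test. Their counts at an unadjusted p under 0.05 therefore cannot be set against those of all genes. A p that misses the threshold does not show that the stock differences are alike.

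**Figure D4:**
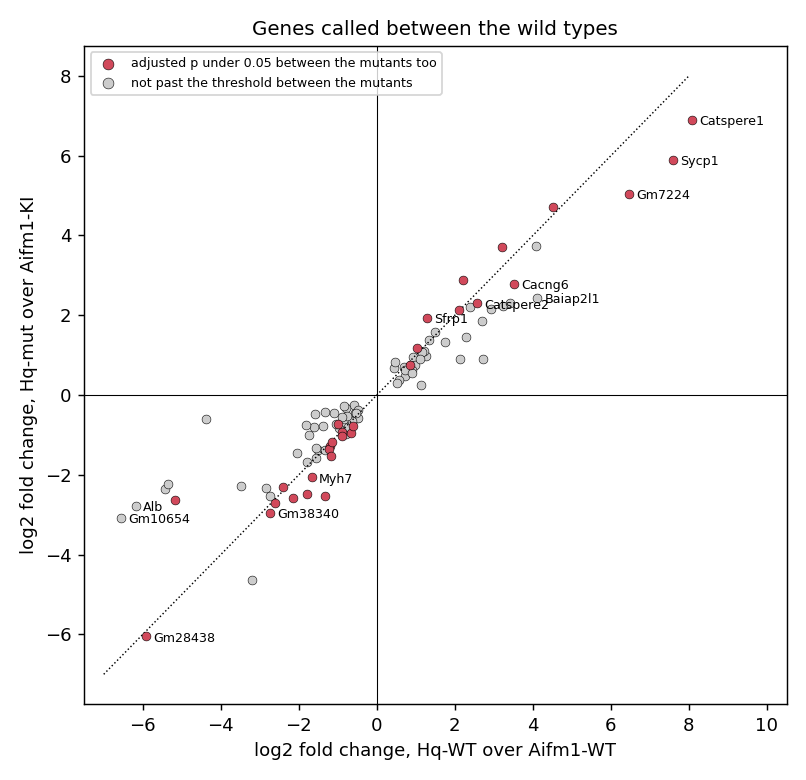
log2 fold change between the stocks in the wild types (horizontal) against that in the mutants (vertical) for the 97 genes called between the wild types and tested in both, with the 30 called in both in red and equality dotted. All 97 points have the same sign on both axes.

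Some transcripts were split within the Hq stock. Baiap2l1, an actin-binding protein that bends membranes, was at 1.72, 1.78, 1.05 and 1.76 CPM in Aifm1-WT and 36.7, 31.4, 43.7 and 1.03 CPM in Hq-WT. Hq-WT 4 lay below all Aifm1-WT libraries, which makes this the called gene with overlap (log2 fold change 4.12, SE 0.78, edgeR adjusted p = 0.0475). In Hq-mut 1 to 4 it was at 13.1, 1.18, 38.5 and 1.04 CPM. Gm9936, also on chromosome 5, was at 7.44, 6.46, 6.97 and 0.783 CPM in Hq-WT, 7.36, 6.41, 9.40 and 0.459 CPM in Hq-mut, and at most 0.499 CPM in the 8 libraries of the Aifm1 stock. In both genes the fourth library of each Hq group was low, and libraries of the same number in the Hq stock also went together over all genes, as given above. Baiap2l1 did not go together at number 2, with 31.4 CPM in Hq-WT 2 and 1.18 CPM in Hq-mut 2. Over the 100 called genes without overlap, Hq-WT 4 was the Hq-WT library nearest to Aifm1-WT in 40, and Hq-WT 1, 2 and 3 were in 16, 25 and 19. Among the Hq-mut libraries, Hq-mut 1 to 4 were nearest to Aifm1-WT in 13, 23, 31 and 33.

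Gene lists were read by their counts, beside a median log2 fold change of 0.00 and 51.0% of genes higher over all genes tested. Of all 18106 genes tested, 2304 had an unadjusted edgeR p under 0.05, against which the list counts are to be read. Genes of antigen presentation were mostly lower in Hq-WT. Of 8 MHC class II genes tested 7 were lower (median -1.12), 4 without overlap, and 1 was called. Cd74, the invariant chain of MHC class II, was at 3.20, 2.67, 3.30 and 3.13 CPM in Aifm1-WT and 0.547, 1.16, 1.51 and 1.22 CPM in Hq-WT. The stocks were well apart (log2 fold change -1.50, SE 0.26, edgeR adjusted p = 0.0355). Of 15 MHC class I genes all 15 were lower (median -0.37), 5 without overlap, and by edgeR 0 were called and 6 had an unadjusted p under 0.05, with 2 called by DESeq2. H2-K1, a class I heavy chain, was at 15.8 to 18.4 CPM in Aifm1-WT and 6.06 to 12.3 CPM in Hq-WT (edgeR adjusted p = 0.0598). Of 19 interferon-stimulated genes 18 were lower (median -0.38) and 1 was called, Oasl2, at 2.56 to 3.14 CPM and 0.808 to 1.60 CPM. Of 14 microglial markers 12 were lower (median -0.12), 3 without overlap, with 0 called by edgeR, 6 at an unadjusted p under 0.05 and 1 called by DESeq2. C1qb, a subunit of complement C1q made by microglia, was at 28.5 to 33.9 CPM in Aifm1-WT and 22.6 to 25.2 CPM in Hq-WT (edgeR adjusted p = 0.0760). The summed microglial markers overlapped, at 421 to 492 CPM and 385 to 448 CPM, and their part in the lower MHC genes was not tested. In the mutants the median log2 fold changes were -1.61 for class II, -0.24 for class I and 0.17 for the interferon list, the last with the other sign.

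Lists of energy metabolism and protein synthesis had the other direction. Of 36 genes of respiratory complex I, 35 were higher in Hq-WT (median log2 fold change 0.22). By edgeR 0 were called and 1 had an unadjusted p under 0.05, and DESeq2 called 0. They summed to 2848 CPM in Hq-WT 2 and 1873 to 1954 CPM in the other Hq-WT libraries, and to 1753 to 1975 CPM in Aifm1-WT. Of 41 cytosolic ribosomal protein genes 34 were higher (median 0.16), with 0 called by edgeR, 2 at an unadjusted p under 0.05 and 0 called by DESeq2. The 1 member without overlap went the other way: Rpl3 was at 14.4 to 15.9 CPM in Aifm1-WT and 4.43, 12.1, 10.54 and 3.52 CPM in Hq-WT (edgeR adjusted p = 0.217). The ribosomal list summed to 2187 CPM in Hq-WT 2 and 1455 to 1624 CPM in the other 7 libraries. Both sums thus stood apart in Hq-WT 2, the library with the most choroid plexus transcripts, whose part was not tested. In the mutants both were highest in Hq-mut 2, at 3724 and 2988 CPM, with 368 CPM of choroid plexus markers. Aifm1-KI 2, with 2918 CPM of these markers, had sums of 1755 CPM for complex I and 1444 CPM for the ribosomal list.

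Of the other cell markers, all 10 oligodendrocyte genes were lower in Hq-WT (median log2 fold change -0.49), with 0 called by edgeR, 2 at an unadjusted p under 0.05 and 0 called by DESeq2. Their sum was 3621 to 4886 CPM in Aifm1-WT and 2436, 1953, 6172 and 3147 CPM in Hq-WT 1 to 4, so the stocks overlapped through Hq-WT 3. In the mutants all 10 were higher in Hq-mut (median 0.24). By fitted fold change all 8 choroid plexus genes tested were higher in Hq-WT (median 1.495). Of these, 0 were called by edgeR, 1 had an unadjusted p under 0.05 and DESeq2 called 0. The list summed to 12.2, 5456, 128 and 13.7 CPM in Hq-WT 1 to 4. Hq-WT 1 and 4 thus lay below every Aifm1-WT library (36.9 to 384 CPM). All 10 tested in the mutants were lower in Hq-mut (median -2.50). There the list summed to 2918 CPM in Aifm1-KI 2, 34.4 to 51.5 CPM in the other Aifm1-KI libraries and 6.76 to 368 CPM in Hq-mut. Striatal markers summed to 228 to 275 CPM in Aifm1-WT and 287 to 310 CPM in Hq-WT, without overlap. Of the 10 tested 7 were higher, 0 were called by edgeR, 4 had an unadjusted p under 0.05 and DESeq2 called 1. Of 34 genes known to vary between inbred strains 22 were higher and 12 lower, and 1 was called, the liver gene Apoa2.

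**Figure D5:**
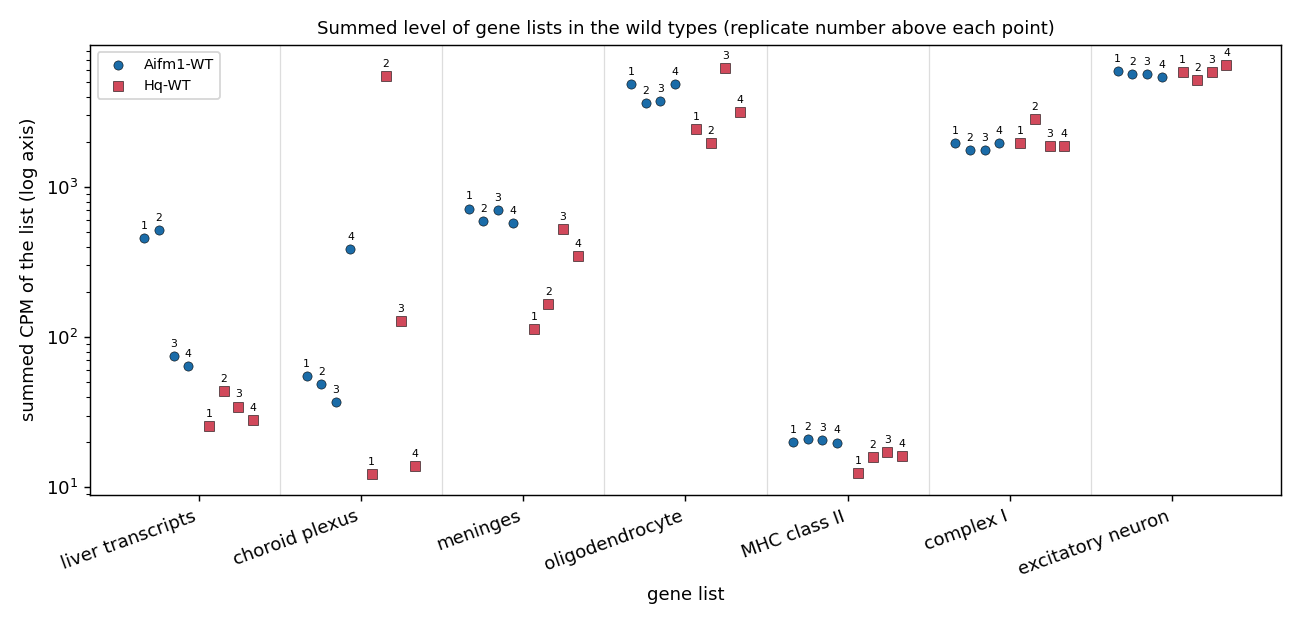
Summed CPM of 7 gene lists in each wild-type library on a log axis, with the replicate number above each point. Liver transcripts are highest in Aifm1-WT 1 and 2, choroid plexus transcripts in Hq-WT 2, and meningeal transcripts are lower in all 4 Hq-WT libraries (113 to 524 CPM) than in any Aifm1-WT library (572 to 719 CPM).

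Smaller differences were called where the libraries of a stock were alike. Crhbp, which binds corticotropin-releasing hormone, was at 15.4, 16.9, 16.7 and 15.5 CPM in Aifm1-WT and 23.96, 26.2, 22.97 and 22.8 CPM in Hq-WT, with a narrow range in each (log2 fold change 0.57, SE 0.09, edgeR adjusted p = 0.0201). Sorl1, a sorting receptor for amyloid precursor protein (0.46, SE 0.09), Pcdhb8, a clustered protocadherin (0.97, SE 0.16), and Anxa4, an annexin (1.03, SE 0.18), were also higher in Hq-WT. Txnip, which binds thioredoxin, was at 17.7, 17.6, 19.9 and 19.8 CPM in Aifm1-WT and 10.8, 8.53, 12.2 and 10.9 CPM in Hq-WT, without overlap (log2 fold change -0.84, SE 0.12, edgeR adjusted p = 0.0116). Srd5a1, a steroid reductase (-0.78, SE 0.14), Sema3f, an axon guidance ligand (-0.80, SE 0.12), and Cacna1h, a T-type calcium channel (-0.49, SE 0.09), were also lower. These 8 genes were named after their values were seen. With 1 library left out, Txnip was called in 7 of the 8 fits and Sema3f in 5. Crhbp and Pcdhb8 were called in 4, Anxa4 and Srd5a1 in 3, and Sorl1 and Cacna1h in 2.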

How the data were processed

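RNA from cerebral cortex was sequenced as 51 base single-end reads. The authors removed adapters and reads of low quality, mapped the rest to mm10 with STAR and counted them per gene with htseq-count, per the series design text (STAR 2.6, per the submitters' processing notes). No source used here names the annotation release or the strand setting. The deposited values are raw read counts for 55573 gene IDs, of which 55480 matched GENCODE M21. Genes were filtered with filterByExpr and tested with edgeR 4.0.16 (R 4.3.3), quasi-likelihood, TMM factors and Benjamini-Hochberg adjustment at 0.05, in separate fits for wild types and mutants. Levels are TMM-scaled CPM. Alternatives used DESeq2 1.42.0, limma 3.58.1 (voom), other filters and scalings, a replicate block and leaving out libraries. The named genes are Aifm1 and sex-linked genes, up to 10 called genes per direction by fold change (predicted genes left out), on/off genes, up to 6 members of each genomic group, up to 4 called members of each list or its member with the smallest p, and up to 10 per direction called in both wild types and mutants; every other gene named was chosen after its values were seen. The members and the 30 gene lists were chosen with earlier results of these data known. Pairs of libraries of a wild-type group differed by more than sampling noise (chi-square per gene 3.23 to 42.4). The fitting scripts were tested on simulated data. Libraries of the same number were checked for shared deviations: they went together between Hq-WT and Hq-mut (every pair over 0.1; the labels do not say what they share) and not between the stocks, whose comparisons were fitted without a block.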

Additional observations from a re-analysis of the deposited data

Results flagged for a closer look

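Of 294 sets of 4 values examined, each a gene or list in 1 wild-type group, 13 held a value far from the other 3 by Dixon's criterion. Chance gives about 5 percent of such sets, and 13 of 294 is no more than that. The values are given as a description only. In Aifm1-WT 4 these were Sostdc1 at 2.51 CPM, Egr4 at 58.8 CPM and the summed choroid plexus markers at 384 CPM. In Aifm1-WT 1 they were Frzb at 14.1 CPM and the summed MHC class I genes at 196 CPM, and in Aifm1-WT 3 Baiap2l1 at 1.05 CPM. In Hq-WT 2 they were Col5a2 at 2.27 CPM and the sums of cytosolic ribosomal protein genes at 2190 CPM, of glutathione and xenobiotic enzymes at 539 CPM and of respiratory complex I at 2850 CPM. In Hq-WT 4 they were Baiap2l1 at 1.03 CPM and Gm9936 at 0.783 CPM, and in Hq-WT 1 the summed hippocampus markers at 166 CPM.

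The stock difference differed between mutants and wild types for 2 genes by edgeR. For Aifm1 the difference was -2.95 on the log2 scale (adjusted p = 5.55e-07). For Gm6166 it was 2.22 (adjusted p = 0.0197), with 4.74 to 9.15 CPM in the 4 Hq-mut libraries and at most 1.72 CPM in the other 12.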

How the results depend on the processing

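The count of genes called between the wild types (101) was 421 with DESeq2, 427 with the likelihood ratio test, 560 with no filter on low counts, 20 without Aifm1-WT 1 and 2, and 43 without these and Hq-WT 2, the last chosen after seeing the data. With 1 library left out it ranged from 32 to 231. Between the mutants (184) it was 1066, 978 and 424 under the first 3 of these, and 25 to 406 with 1 library left out. The difference of the stock differences (2 genes) gave 5 with DESeq2 and 1 to 2 with 1 library left out. The genes of at least 2-fold without overlap (167) numbered 75 when a mean log2 CPM of 2 or more was required, and 167 to 282 with 1 library left out (268 without Hq-WT 3, 282 without Hq-WT 4). The on/off genes (6) numbered 7 to 20 with 1 library left out, and 21 without Aifm1-WT 1 and 2 and Hq-WT 2. The genomic groups (5) numbered 2 to 12 and 2 in the same fits. Sostdc1, not called, ranged from -0.39 (without Hq-WT 2) to 4.07 with 1 library left out, against 3.25, and changed sign also, to -0.91 without Aifm1-WT 1 and 2 and Hq-WT 2, and Hba-a2, not called, ranged from -0.076 (without Hq-WT 3) to 0.28, against 0.11. The cause was not tested, beyond the fewer libraries or other genes each fit held. limma-voom (109), RLE scaling (99), a stricter filter (87) and 1 fit of 16 libraries (109) gave counts within 1.5 times of 101.

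With the replicate block 99 genes were called between the wild types, 68 of them among the 101, and 26 between the mutants. The same-numbered libraries of the 2 wild-type groups correlated at 0.04, -0.12, 0.15 and -0.06, and 1 of these 8 libraries (Hq-WT 3) correlated best with its own number. Those of Aifm1-KI and Hq-mut correlated at -0.148 to 0.0739. The numbers therefore do not pair the samples between the stocks. Within the Hq stock they do, and the replicate block within it, added after seeing the data, left the 2 genes of the difference of the stock differences called.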
